A study of Mus musculus with 21 samples.

Results

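The 36 genes described here encode enzymes and transporters of glycolysis and the tricarboxylic acid (TCA) cycle. They were chosen by gene symbol as pathway members, with earlier results of these data known, and all 36 are among the 12791 genes listed for every library. By role, 15 belong to glucose uptake and glycolysis, 4 to lactate formation and export, 4 to the entry of pyruvate into the oxidative pathway of mitochondria and 13 to the TCA cycle. Pdk1 is a kinase that inhibits pyruvate dehydrogenase, and Slc2a1, Slc16a1 and Slc16a3 are membrane transporters, so the group is wider than the enzymes of its name.

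Glycolysis splits glucose into pyruvate in the cytosol, and lactate dehydrogenase can turn that pyruvate into lactate, which monocarboxylate transporters carry out of the cell. Pyruvate dehydrogenase instead converts pyruvate to acetyl-CoA, which the TCA cycle oxidises in mitochondria to feed respiration. In the uterus, the endometrial cells that grow and differentiate under ovarian hormones are known for high glucose use, and lactate production is a known feature of the stroma when it prepares for an embryo.

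RNA of the whole uterus was sequenced in 3 age groups of C57BL/6J mice, wild type animals of an inbred strain, to ask which genes differ with age. All animals, the youngest and the oldest alike, had received pregnant mare serum gonadotropin, a hormone that stimulates the ovary, at a dose of 5 or 7.5 units and 48 hours before the uterus was removed. The dose of each animal is not known from the labels. The groups are 7 libraries at 5 weeks of age (5w), 7 at 8 weeks (8w) and 6 of aged mice; aged replicate 3 was not analysed here. Replicates 1 and 2 of every group form an earlier set, whose aged mice were 60 to 75 weeks old. Replicates 3 to 7 form a later set, whose aged mice were 79 weeks old, which makes 2 sets in all. The labels name 2 RNA kits and 2 read types, single reads of 60 bases and paired reads of 150 bases, without assigning them to samples, so kit, read type and, in aged mice, exact age cannot be told apart from the set.

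Values are reads of a gene per 1000000 counted reads (CPM), and total reads ran from 12204573 to 14448283 in the earlier and from 19100690 to 30689439 in the later set. The uterine marker genes Esr1, Pgr, Hoxa10, Hoxa11, Hoxd10, Emx2 and Hand2 were all listed and summed to 601 to 1201 CPM in 5w, 718 to 1209.9 CPM in 8w and 809 to 1333 CPM in aged libraries. The set moved more genes than age did: 7512 of 12791 genes (58.7%) differed between the sets by limma with Benjamini-Hochberg adjustment, and 23 of the 36 members did. Of the members 11 were higher in the later set (20.5% of all genes) and 12 lower (38.3%). Every age comparison was therefore fitted with the set as a term. Columns were assigned to samples by their headers, since 15 of the 20 headers name another sample than the one their file is attached to, and the column of 5w replicate 3 lies in a file attached to an aged sample. The labels number the replicates without saying that each came from a separate animal, so p-values measure the spread between these samples.

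One library stood apart in the genes described here. In 8w replicate 4, 12 of the 15 glycolysis members and 2 of the 4 lactate members exceeded their values in all 4 other 8w libraries of the later set, and 1 glycolysis member lay below them. Over all genes the share above the other 4 libraries was 14.6% and the share below them 48.4%. Aldoa, the main aldolase of most tissues, was at 2170.2 CPM there against 843 to 990.3 CPM in the other 4, and Slc16a3, the lactate exporter of highly glycolytic cells, at 49.4 CPM against 6.27 to 10.9 CPM. Pdk1 was at 65.3 CPM against 14.8 to 25.2 CPM. Of the 13 TCA cycle members, 2 were above and 6 below the other 4 libraries, so the high values lay in glycolysis. Of 21 listed genes of the hypoxia response, 12 were above the other 4 libraries and 6 below. Those named next were chosen after their values were seen. Egln3, an oxygen-sensing hydroxylase that is itself induced by low oxygen, was at 187 CPM against 5.67 to 14.5 CPM, and Ankrd37, another hypoxia-inducible gene, at 73.4 CPM against 2.12 to 5.06 CPM. Bnip3, a mitophagy receptor induced by low oxygen, was at 183 CPM against 42.4 to 67.1 CPM. In the same library 9 of 12 epithelial markers were the highest and 7 of 10 endothelial markers the lowest among the 8w libraries of its set; the part of cell composition or handling in these values was not tested. Without 8w replicate 4, 10 members were lower and 1 higher in aged than in 8w uteri, beside 10.8% and 7.78% of all genes. All 9 members called with it were among them. In aged replicate 7, 22 of the 36 members lay below and 7 above the other 3 aged libraries of the later set, beside 27.7% and 43.9% of all genes. In 8w replicate 6, 15 members lay below and 3 above the other 8w libraries of that set, beside 19.0% and 21.7% of all genes.

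**Figure D1:**
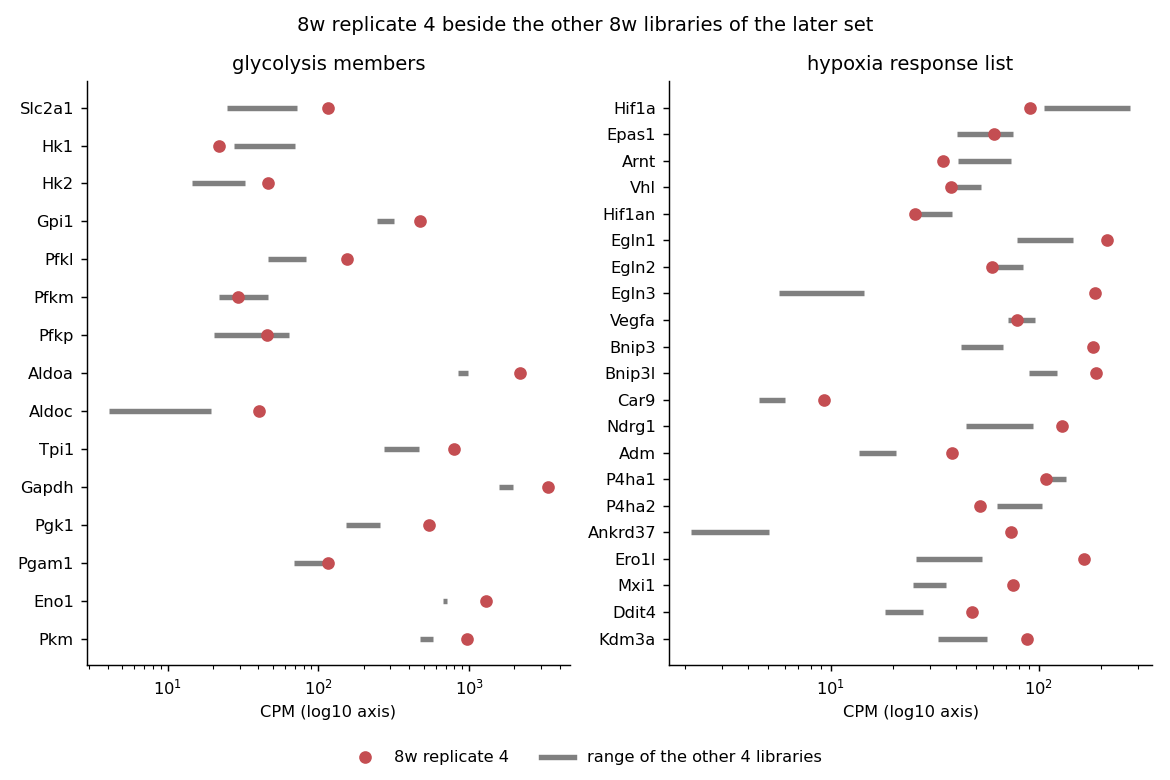
CPM on a log10 axis of the 15 glycolysis members (left) and 21 hypoxia response genes (right), as a point for 8w replicate 4 and a bar from the lowest to the highest of the other 4 libraries at 8 weeks of the later set. The point lies above the bar for 12 genes in each panel, and Egln3 and Ankrd37 lie farthest from it.

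Aged uteri had less RNA of several glycolytic, lactate and TCA cycle genes than uteri of younger mice. Against 8w, 9 of the 36 members fell and 0 rose; of all 12791 genes 8.53% fell and 8.64% rose. Against 5w, 14 members fell and 0 rose, where 9.41% of all genes fell and 12.7% rose. The 9 that fell in both comparisons, which share the aged libraries, were Hk2, Pgk1 and Pgam1 of glycolysis, Ldha of lactate formation, Pdhb of pyruvate entry, and Idh3a, Suclg1, Fh1 and Mdh2 of the TCA cycle. Tpi1, Gapdh, Eno1, Dld and Cs fell against 5w only, and 0 of these 5 differed between 8w and 5w. The median log2 fold change of the members was -0.31 against 8w and -0.38 against 5w, beside 0.05 and 0.09 over all genes. A negative fold change was seen for 28 of 36 members in each comparison, beside 5802 and 5492 of 12791 genes. With no term for the set, 3 members fell against 8w, beside 3.67% of all genes, and 4 against 5w, beside 4.42%. With columns attached by file instead of by header, 1 member (Ldha) fell against 8w, a share of 36 near the 2% of all genes that fell. Against 5w, 7 members then fell and 2 rose, beside 5.68% and 10.1% of all genes. In whole tissue, fewer cells of a type and less RNA per cell cannot be told apart.

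**Figure D2:**
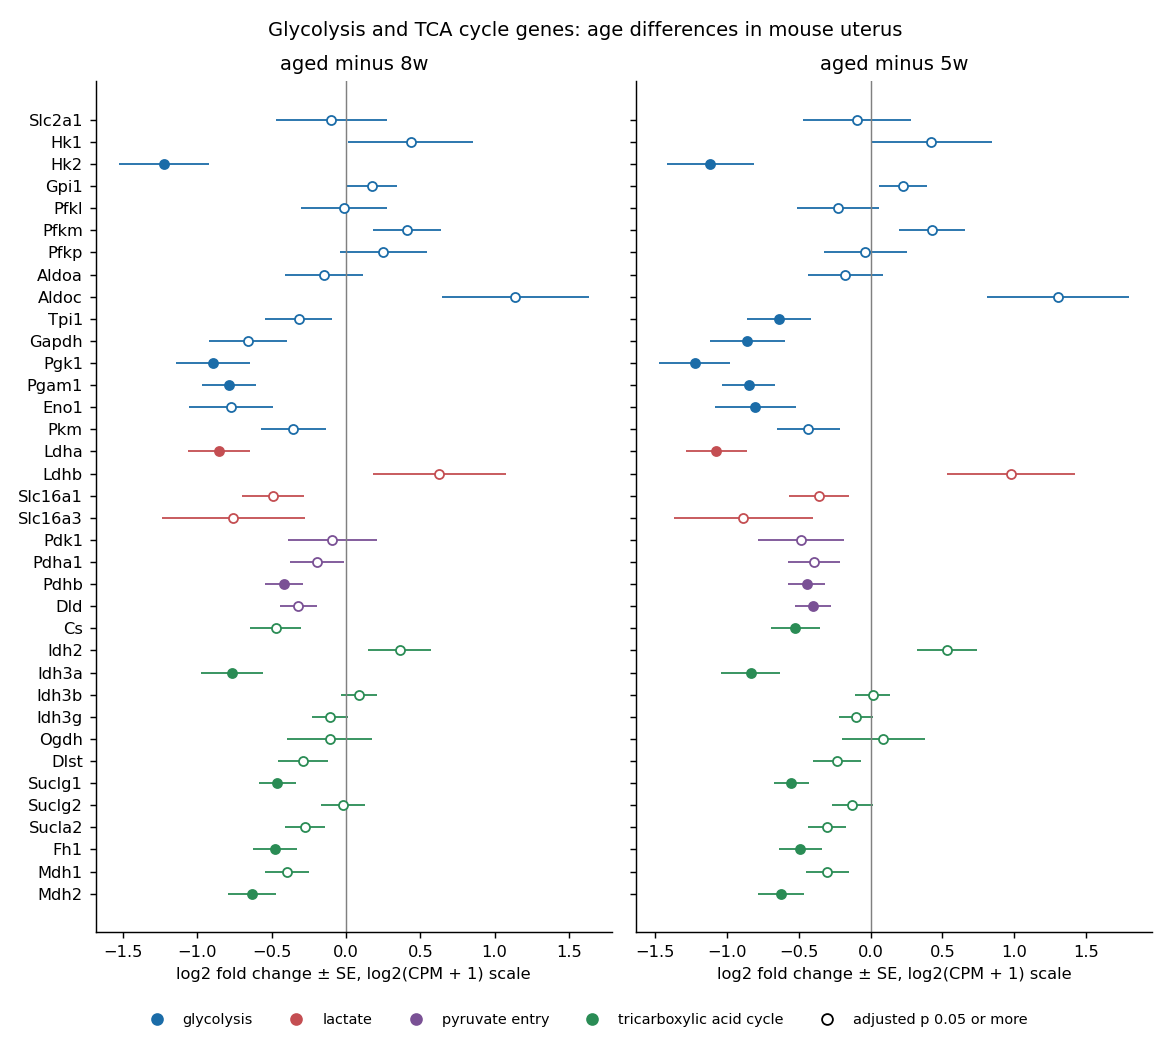
Log2 fold change on the log2(CPM + 1) scale with its standard error, from the fit with the set as a term, for all 36 members in order of role, aged minus 8w (left) and aged minus 5w (right). Filled points have an adjusted p below 0.05: 9 on the left and 14 on the right, all left of 0.

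No member differed between the younger groups. Between 8w and 5w, limma called 0 of 36 members and 0 of 12791 genes (0%). At an unadjusted p below 0.05 it gave 139 genes (1.09%) and 0 members, limma voom on whole reads 108 genes and 0 members, and array weights 1412 genes (11%) and 8 members, with 0 genes called by either after adjustment. The members' log2 fold changes ran from -0.39 for Pdk1 to 0.35 for Ldhb, with a median of -0.03.

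The median age difference of the members was larger in the earlier set, and no member passed a test of that difference. Fitted alone, the earlier set gave a median log2 fold change of the members of -0.42 against 8w and -0.59 against 5w, and the later set -0.28 and -0.31. Against 5w the 15 glycolysis members had a median of -1.12 in the earlier and 0.05 in the later set, where 7 of 15 were negative. The 13 TCA cycle members had -0.39 and -0.28, the lactate genes -1.01 and -0.36 and the pyruvate entry genes -0.50 and -0.39. Against 8w the medians were -0.45 and -0.13 for glycolysis and -0.46 and -0.28 for the TCA cycle. They were -0.44 and -0.54 for lactate and -0.13 and -0.30 for pyruvate entry, so larger in the later set. A difference between roles was not tested. In the later set alone, limma called 0 of 36 members in either comparison, where 1.03% of all genes were lower against 8w and 2.21% against 5w. There 24 of 36 members were negative in each, beside 5922 and 5529 of 12791 genes. In the earlier set alone, with 2 libraries per group, 15 members were called against 8w and 17 against 5w, 3 of them higher in each comparison. Of all genes 13.2% were lower and 15% higher against 8w in that set, and 8.55% lower and 11.9% higher against 5w. The difference in age effect between the sets was tested directly as an interaction, and no member was called: the smallest adjusted p among them was 0.133, and over all genes the interaction was called for 0.0235% against 8w and 0% against 5w. When 8w replicate 4 was also left out of the later set, the members called there numbered 0 against 8w and 3 against 5w (Pgk1, Ldha and Idh3a, all lower). Of all genes 1.58% were lower against 8w and 2.81% against 5w in that fit.

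**Figure D3:**
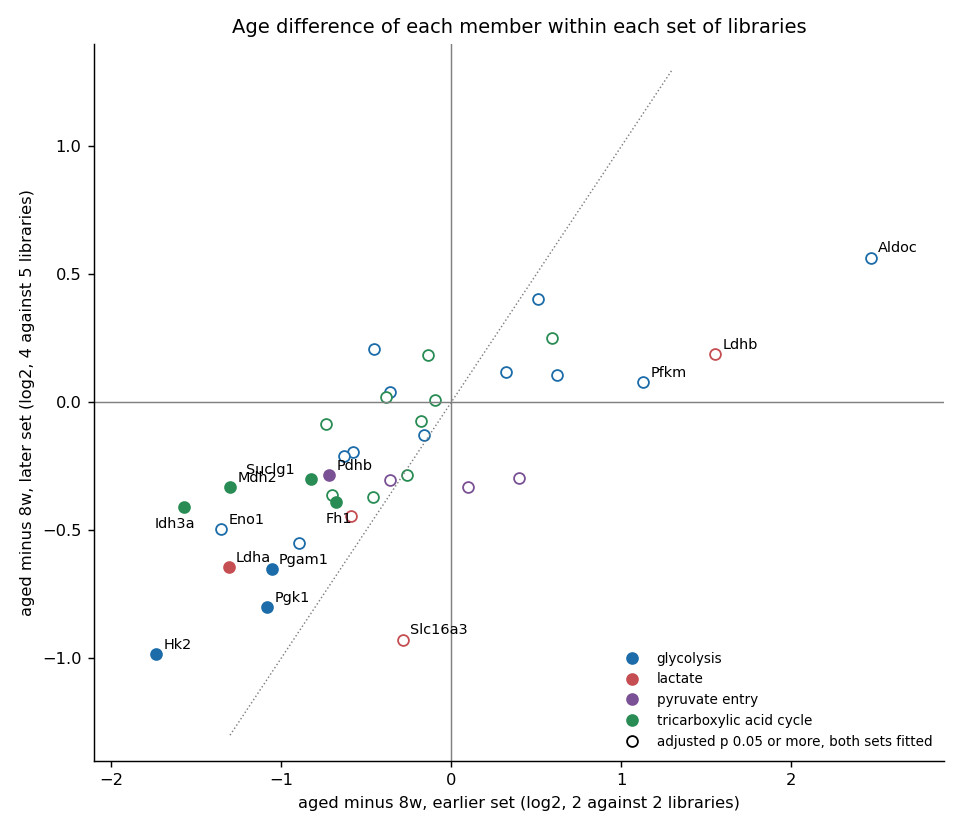
Each point is 1 of the 36 members, with its aged minus 8w difference in mean log2(CPM + 1) in the earlier set on the horizontal and in the later set on the vertical axis, and equality as a dotted line. Hk2, Pgk1, Pgam1, Ldha, Idh3a and Mdh2 lie left of and below 0 in both sets, and Aldoc, Ldhb and Pfkm lie far to the right with later-set values of 0.08 to 0.56.

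Glucose uptake and the first steps of glycolysis held 1 gene that fell, a hexokinase. Hk2, the inducible hexokinase that traps glucose as its phosphate (ENSMUSG00000000628, GRCm38 chromosome 6, 82725025 to 82774454, minus strand), was at 156 and 126 CPM in 5w, 112 and 157 CPM in 8w and 56.7 and 26.9 CPM in aged libraries of the earlier set. Later libraries had it at 14.4, 50.03, 28.3, 15.8 and 29.6 CPM in 5w, 26.8, 46.6, 32.8, 14.5 and 31.2 CPM in 8w, and 15.7, 9.04, 14.2 and 18.6 CPM in aged libraries. The aged libraries of the earlier set lay below all younger ones, and in the later set 2 of 4 did. Hk2 fell by 1.23 ± 0.30 (SE) on the log2 scale against 8w (limma adjusted p = 0.00953), a fitted ratio of 0.427, and by 1.12 ± 0.30 against 5w (adjusted p = 0.0126). Both calls held with any 1 of the 20 libraries left out, with adjusted p up to 0.0284 and 0.0394.

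Hk1, the constitutive hexokinase, was at 12.5 to 124 CPM in 5w, 21.9 to 90.4 CPM in 8w and 34.0 to 133 CPM in aged libraries, and its log2 fold change of 0.44 ± 0.42 against 8w did not pass the test (limma adjusted p = 0.504). Per exon length, Hk2 made up 16.6% to 39.8% of the sum of the pair in aged and 24.6% to 75.3% in younger libraries. The log2 ratio of Hk2 to Hk1 was lower by 1.65 in aged than in 8w (log2 difference -1.65), with an exact permutation p of 0.00265 within sets, two-sided, which became 0.0556 after Benjamini-Hochberg adjustment over the 21 tests of 7 ratios in 3 comparisons. The smallest p the design allows is 0.00132. Slc2a1, the basal glucose transporter, differed by a log2 of -0.10 ± 0.38 and -0.09 ± 0.38 from 8w and 5w.

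The 3 subunits of phosphofructokinase, the main control point of glycolysis, passed in neither comparison. Pfkl was at 46.5 to 308 CPM over all libraries, Pfkp at 18.6 to 84.2 CPM and Pfkm at 18.7 to 58.6 CPM. Against 8w their log2 fold changes were -0.01, 0.25 and 0.41. Pfkm, the muscle subunit, was higher in both aged than in all 4 younger libraries of the earlier set (58.6 and 37.9 against 18.7 to 26.0 CPM) but overlapped in the later. Gpi1, the isomerase between glucose and fructose phosphates, differed by 0.18 ± 0.17 and 0.23 ± 0.17.

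Neither aldolase passed the test. Aldoa had a log2 fold change of -0.15 ± 0.26 against 8w and Aldoc, the brain-type aldolase, of 1.14 ± 0.49 (limma adjusted p = 0.117), and against 5w Aldoc had 1.31 ± 0.49 (adjusted p = 0.0627). Aldoc was at 123 and 74.8 CPM in the aged libraries of the earlier set against 14.3 to 51.2 CPM in the younger. In later libraries it was at 18.9, 6.13, 38.6 and 30.0 CPM in aged libraries against 3.07 to 40.5 CPM. Without 8w replicate 4, Aldoc was called higher in aged uteri (adjusted p = 0.0273 against 8w and 0.0343 against 5w), and without aged replicate 5 likewise (0.0284 and 0.0134). The ratio of Aldoc to Aldoa was 1.46 higher on the log2 scale than in 5w (exact permutation p = 0.0198, adjusted 0.125).

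In the later steps of glycolysis, from triose phosphates to pyruvate, Pgk1 and Pgam1 fell in both comparisons. Pgk1, the phosphoglycerate kinase, which forms ATP (ENSMUSG00000062070, chromosome X, 106187100 to 106203699, plus strand), was at 46.3 and 40.1 CPM in 5w, 24.8 and 34.4 CPM in 8w and 18.5 and 9.49 CPM in aged libraries of the earlier set. In the later set it was at 203, 319.9, 246, 453 and 392 CPM in 5w, 235, 545, 258, 152 and 241 CPM in 8w, and 156, 153, 173 and 121 CPM in aged libraries. The aged values of the later set lay below all 5w values and overlapped 8w only through 8w replicate 6. Pgk1 fell by 0.89 ± 0.25 against 8w (limma adjusted p = 0.018) and by 1.23 ± 0.25 against 5w (adjusted p = 0.0019), and without aged replicate 2 the call against 8w was lost (adjusted p = 0.0535), as it was with limma voom (0.057).

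Pgam1, the phosphoglycerate mutase (ENSMUSG00000011752, chromosome 19, 41911923 to 41918660, plus strand), was at 22.7 and 23.1 CPM in 5w, 14.1 and 20.6 CPM in 8w and 7.51 and 7.88 CPM in aged libraries of the earlier set. Later libraries had it at 75.4, 124, 102, 65.7 and 109.8 CPM in 5w, 94.2, 116, 106, 68.7 and 112 CPM in 8w, and 60.2, 62.5, 71.5 and 54.5 CPM in aged libraries. In the later set 3 of 4 aged libraries lay below all 10 younger ones. It fell by 0.79 ± 0.18 against 8w (limma adjusted p = 0.00657) and by 0.85 ± 0.18 against 5w (adjusted p = 0.00295), with adjusted p up to 0.0217 and 0.01 when any 1 library was left out.

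Gapdh, the dehydrogenase often used as a reference transcript, fell by 0.86 ± 0.26 against 5w (limma adjusted p = 0.025) and had a log2 fold change of -0.66 ± 0.26 against 8w (adjusted p = 0.0889). In later libraries it was at 718 CPM in aged replicate 7 and at 1529 to 1977 CPM in the other 3 aged libraries, against 1460.2 to 3742 CPM in the younger. Without aged replicate 7 its call against 5w was lost, as it was without aged replicate 2 or 5w replicate 2, 6 or 7 (highest adjusted p 0.0643). Eno1, the enolase, and Tpi1, which interconverts the triose phosphates, fell against 5w by 0.80 ± 0.28 (adjusted p = 0.0475) and 0.64 ± 0.22 (adjusted p = 0.0463). These calls held in 7 and 9 of the 20 fits that left 1 library out. That of Eno1 was kept only without 5w replicate 3 or 5, 8w replicate 2 or 4, or aged replicate 4, 5 or 6 (highest adjusted p otherwise 0.117). That of Tpi1 was lost without 5w replicate 1, 2, 6 or 7, 8w replicate 3, 5 or 7, or aged replicate 1, 2, 4 or 7 (highest 0.119). Pkm, the pyruvate kinase, had log2 fold changes of -0.36 ± 0.22 and -0.43 ± 0.22.

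Of the 4 lactate genes, Ldha fell. It encodes the dehydrogenase subunit that favours lactate. Ldha (ENSMUSG00000063229, chromosome 7, 46841475 to 46855627, plus strand) was at 1279 and 1351 CPM in 5w, 856 and 1379 CPM in 8w and 464 and 415 CPM in aged libraries of the earlier set. In the later set it was at 582, 794, 814, 1187 and 1021 CPM in 5w, 778, 1218, 826, 483 and 610.1 CPM in 8w, and 489, 461, 527 and 436 CPM in aged libraries. All 6 aged libraries lay below all 7 at 5 weeks, and 8w replicate 6, at 483 CPM, was the only 8w library within the aged range. Ldha fell by 0.86 ± 0.21 against 8w (limma adjusted p = 0.00953), a fitted ratio of 0.553, and by 1.07 ± 0.21 against 5w (adjusted p = 0.00154), and both calls held with any 1 library left out (adjusted p up to 0.0296 and 0.00549).

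Ldhb, the subunit that favours pyruvate, was at 13.7 to 37.8 CPM in the 4 younger and at 74.1 and 103 CPM in the 2 aged libraries of the earlier set, without overlap. Later libraries had it at 65.8 to 670.5 CPM in 5w, 128 to 465 CPM in 8w and 131 to 323 CPM in aged libraries, with the highest values in 5w replicate 3 and 8w replicate 6. Its log2 fold changes of 0.63 ± 0.45 and 0.98 ± 0.45 did not pass the test (limma adjusted p = 0.348 and 0.12). Without 5w replicate 3 the second was called (adjusted p = 0.00937). Those libraries also had the lowest Ldha of their groups, so that Ldha per exon length was 29.2% and 33.0% of the pair there, against 67.4% to 97.9% in the other 12 younger libraries and 42.4% to 74.8% in aged ones. The log2 ratio of Ldha to Ldhb differed by -1.46 from 8w (exact permutation p = 0.0357, adjusted 0.15) and by -2.04 from 5w (p = 0.0238, adjusted 0.125).

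The monocarboxylate transporters did not pass. Slc16a1, the widespread carrier of lactate and pyruvate, had log2 fold changes of -0.49 ± 0.21 and -0.36 ± 0.21, and was called lower against 8w without aged replicate 2 (limma adjusted p = 0.049). That library was at 307 CPM and aged replicate 1 at 115 CPM, so the 2 aged libraries of the earlier set lay far apart. Slc16a3, the lowest member per exon length in both sets, had -0.76 ± 0.48 and -0.89 ± 0.48.

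**Figure D4:**
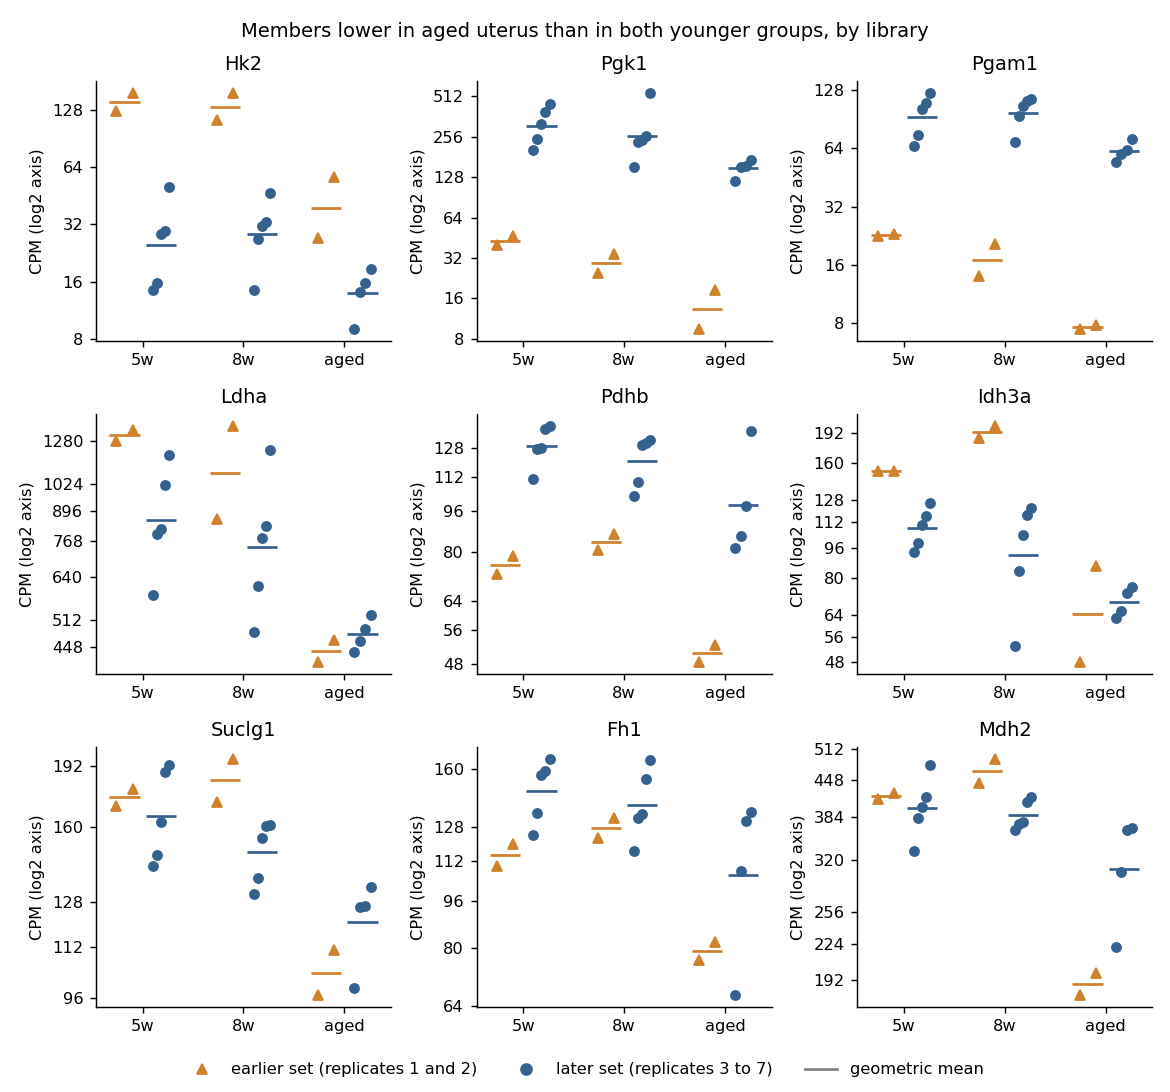
CPM on a log2 axis of the 9 members that fell in both comparisons, for each library by age group, with triangles for the earlier set, circles for the later set and a bar at the geometric mean. Aged libraries lie lowest in the earlier set for all 9, while in the later set they overlap younger libraries in part. The 9 were chosen by a fit that holds these libraries, so their low place follows in part from that choice. Of all genes, 39.0% and 28.9% had aged replicate 1 and 2 below every younger library of the earlier set. Pgk1 and Pgam1 sit far higher in the later set.

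At the entry of pyruvate into the TCA cycle, Pdhb fell in both comparisons. Pdhb, the beta subunit of the pyruvate dehydrogenase E1 enzyme, was at 48.6 and 52.5 CPM in aged and 72.3 to 86.5 CPM in younger libraries of the earlier set. In later libraries it was at 138, 98.2, 81.4 and 86.0 CPM in aged and 103 to 141 CPM in younger libraries, so that 3 of 4 aged libraries lay below the younger ones and aged replicate 4 did not. It fell by 0.42 ± 0.13 against 8w (limma adjusted p = 0.033) and by 0.44 ± 0.13 against 5w (adjusted p = 0.0195). The first call held in 12 of the 20 fits without 1 library, with adjusted p up to 0.0851. It was lost without 8w replicate 1, 2, 3 or 5 or aged replicate 1, 2, 6 or 7, and the call against 5w was lost without aged replicate 1 (0.0507). With median centring, quantile normalization and voom the adjusted p against 8w was 0.0513, 0.0569 and 0.0581. Dld, the dihydrolipoamide dehydrogenase shared with the oxoglutarate complex, fell by 0.40 ± 0.12 against 5w (adjusted p = 0.0248, lost without aged replicate 1, 6 or 7, highest 0.0606) and had -0.32 ± 0.12 against 8w, where it was called without 8w replicate 4 (adjusted p = 0.0254). Pdha1, the alpha subunit, had -0.20 ± 0.18 and -0.39 ± 0.18, and Pdk1 -0.09 ± 0.30 and -0.48 ± 0.30.

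Of the TCA cycle members, 4 of 13 fell against 8w and 5 against 5w. Idh3a, the catalytic subunit of the NAD-dependent isocitrate dehydrogenase (ENSMUSG00000032279, chromosome 9, 54586334 to 54604661, plus strand), was at 153 and 152 CPM in 5w, 186 and 200.5 CPM in 8w and 48.1 and 85.9 CPM in aged libraries of the earlier set. In the later set it was at 93.3, 126, 109.9, 98.5 and 116 CPM in 5w, 122, 52.9, 117, 83.5 and 104 CPM in 8w, and 75.8, 65.6, 72.9 and 62.8 CPM in aged libraries. All 6 aged libraries lay below all 5w libraries, and in the later set 8w replicate 4, at 52.9 CPM, was the only younger library within or below the aged range. Idh3a fell by 0.77 ± 0.21 against 8w (limma adjusted p = 0.0162) and by 0.84 ± 0.21 against 5w (adjusted p = 0.00784), and held with any 1 library left out (adjusted p up to 0.0486 and 0.022).

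The other subunits of that enzyme did not pass: Idh3b had log2 fold changes of 0.09 ± 0.12 and 0.01 ± 0.12, and Idh3g of -0.11 ± 0.12 and -0.10 ± 0.12. Idh2, the mitochondrial isocitrate dehydrogenase that makes NADPH, had 0.36 ± 0.21 and 0.53 ± 0.21 (limma adjusted p = 0.0757 against 5w), and was called higher against 5w without 5w replicate 3, 5w replicate 4 or aged replicate 5, with a smallest adjusted p of 0.0315. The difference between these fold changes of subunits was not tested.

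Suclg1, the alpha subunit common to both forms of succinyl-CoA ligase (ENSMUSG00000052738, chromosome 6, 73248382 to 73276911, plus strand), was at 171 and 179.7 CPM in 5w, 173 and 196 CPM in 8w and 96.9 and 111 CPM in aged libraries of the earlier set. Later libraries had it at 162, 142, 147, 189 and 193 CPM in 5w, 161, 161, 155, 138 and 131 CPM in 8w, and 127, 126, 134 and 98.8 CPM in aged libraries. Of the 6 aged libraries 5 lay below all 14 younger ones, and aged replicate 6 overlapped only 8w replicate 7. It fell by 0.46 ± 0.12 against 8w (limma adjusted p = 0.0146) and by 0.55 ± 0.12 against 5w (adjusted p = 0.00366), and both calls held with any 1 library left out (adjusted p up to 0.0457 and 0.0124). The beta subunits, Suclg2 for GTP and Sucla2 for ATP, had -0.02 ± 0.14 and -0.28 ± 0.13 against 8w and did not pass.

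Mdh2, the mitochondrial malate dehydrogenase that closes the cycle (ENSMUSG00000019179, chromosome 5, 135778480 to 135790398, plus strand), was at 414 and 425 CPM in 5w, 442 and 491 CPM in 8w and 180.2 and 198 CPM in aged libraries of the earlier set. In later libraries it was at 400.4, 382, 331, 479 and 418 CPM in 5w, 418, 375, 408, 372 and 363 CPM in 8w, and 366, 304, 363 and 221 CPM in aged libraries. The groups were far apart in the earlier set, and in the later set 2 of 4 aged libraries lay below all younger ones. It fell by 0.64 ± 0.16 against 8w (limma adjusted p = 0.0118) and by 0.62 ± 0.16 against 5w (adjusted p = 0.0102), and held with any 1 library left out (adjusted p up to 0.0377 and 0.0318). With array weights the call of Mdh2 against 5w was lost. Its cytosolic counterpart Mdh1 had -0.40 ± 0.15 and -0.30 ± 0.15 (adjusted p = 0.0708 and 0.148).

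Fh1, the fumarase, fell by 0.48 ± 0.15 against 8w (limma adjusted p = 0.033) and by 0.49 ± 0.15 against 5w (adjusted p = 0.0233). It was at 76.6, 82.0, 136, 131, 108 and 66.8 CPM in aged libraries against 109.9 to 166 CPM in all younger ones, so that 4 of 6 aged libraries lay below the younger range. The call against 8w held in 13 of 20 fits without 1 library (adjusted p up to 0.0795) and was lost without 8w replicate 1, 2, 3 or 5 or aged replicate 1, 2 or 7. The call against 5w was lost without aged replicate 1 or 7 (highest 0.0547). Against 8w it was also lost with median centring (0.0551) and quantile normalization (0.064), and against 5w with quantile normalization (0.0605). Cs, the citrate synthase that starts the cycle, fell by 0.53 ± 0.17 against 5w (adjusted p = 0.0322, lost without 5w replicate 1, 2, 4, 5 or 7 or aged replicate 1, 2 or 7, highest 0.0797) and had -0.47 ± 0.17 against 8w (adjusted p = 0.0604). Ogdh and Dlst, subunits of the oxoglutarate dehydrogenase complex, had -0.11 ± 0.29 and -0.29 ± 0.17 against 8w.

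In the later set alone, 2.11% of all genes had all 4 aged libraries below and 1.2% above every younger library, against 0 and 0 of 36 members. Over both sets, 73 of 12791 genes (0.571%) had all 6 aged libraries below every younger library, and 0 members did; Suclg1 came closest with 5 of 6. Counted within its own set, aged replicate 1 lay below every younger library in 21 of the 36 members and aged replicate 2 in 25. The shares of all genes were 39.0% and 28.9%. Aged replicates 4, 5, 6 and 7 did so in 2, 6, 7 and 17 members, beside 8.22%, 9.77%, 12.6% and 15.6% of all genes. Above every younger library, aged replicates 1 and 2 had 6 and 5 members, beside 37.6% and 43.6% of all genes. Aged replicates 4, 5, 6 and 7 had 2, 0, 2 and 1 members above, beside 14.4%, 5.30%, 16.5% and 28.3%. Leaving out aged replicate 7, the lowest library of the later set, gave 7 members lower against 8w, beside 7.94% of all genes. Against 5w it gave 8, the fewest of the 8 to 14 members over all fits without 1 library. Those fits called 839 to 1329 of 12791 genes lower, a range over all of them and not the count of this fit.

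The set moved some members by more than age moved any. Gapdh was higher in the later set by 4.42 ± 0.23 on the log2 scale, Pgk1 by 3.10 ± 0.22, Pgam1 by 2.42 ± 0.16, Ldhb by 2.38 ± 0.39 and Eno1 by 1.71 ± 0.25, all called by limma. These 5 are the members whose transcripts share most sequence with genes elsewhere in the genome. A count was made of the stretches of 60 bases in each member's GENCODE transcripts that also occur in transcripts of genes elsewhere. The share was 53.4% for Pgk1, 35.7% for Pgam1, 24.7% for Eno1, 23.8% for Gapdh and 16.6% for Ldhb, and at most 14.2% for any other member. Gapdh shared such stretches with 167 other genes, and Pgk1 with 4, among them Pgk1-rs7 and Gm5537. Of the 20 members with 0% shared, set differences ran from -2.15 to 0.50 with a median of -0.50, with 3 called higher and 9 called lower. The 11 members with a share above 0% and below 15% ran from -0.79 to 0.74 with a median of -0.14, with 3 called higher and 3 lower. Across the 36 members the set difference and the shared share had a Pearson r of 0.77 and a Spearman rho of 0.60. These describe genes measured in the same libraries.

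**Figure D5:**
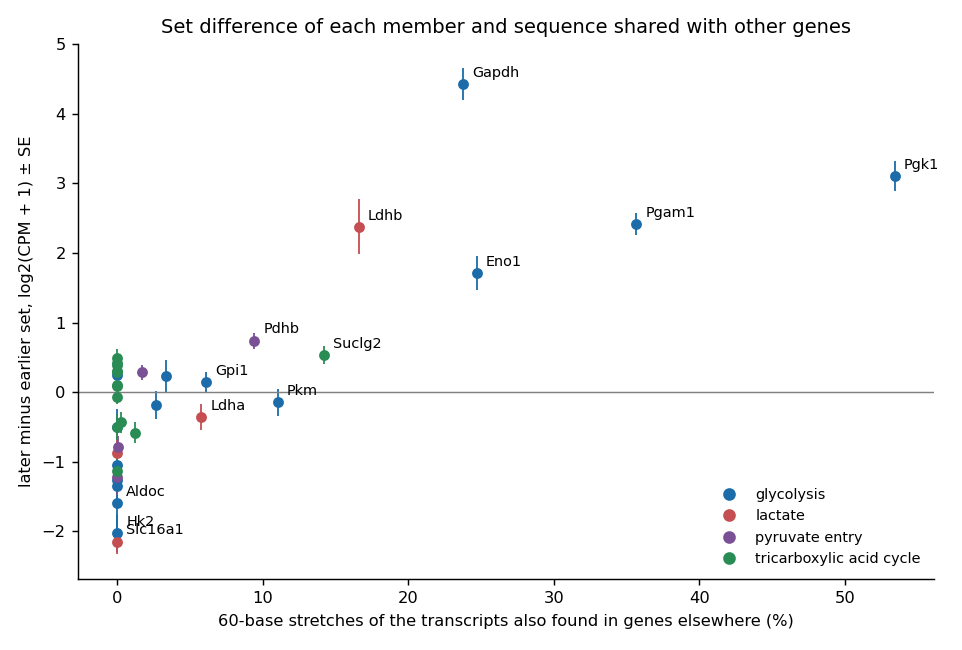
Later minus earlier set difference on the log2(CPM + 1) scale with its standard error, plotted for each of the 36 members against the percentage of its 60-base stretches found in genes elsewhere. The 5 members above 15% lie between 1.71 and 4.42, the 11 members above 0% and below 15% between -0.79 and 0.74, and the 20 members at 0% between -2.15 and 0.50.

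Levels per exon length depended on the set. In the younger libraries of the later set Gapdh ranked highest of the 36, at 548 ± 210.3 CPM per kilobase (SD, n = 10), followed by Aldoa at 366 ± 144, Ldha at 251 ± 74.6 and Tpi1 at 184 ± 62.5. The spread of Gapdh overlapped that of Aldoa. In the earlier set Gapdh ranked 23 and Aldoa first. Slc16a3 was lowest in the later set, at 2.36 ± 2.47, and Pfkp and Pdk1 were next, within its spread. How reads from stretches shared with other genes were assigned was not tested, so the levels of Gapdh, Pgk1, Pgam1, Eno1 and Ldhb are uncertain. Within sets, Pgk1 and Pgam1 had log2 differences from 8w of -1.08 and -1.05 in the earlier and -0.80 and -0.65 in the later set. Fitted alone, the later set called 0 members against 8w, and the earlier set called Pgam1 but not Pgk1. Whether reads from shared stretches have a part in these age differences was not tested.

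Promoters are shown for the 4 genes of glycolysis and lactate formation that fell in both comparisons. These stretches, from 250 bases before to 50 after the start in RefSeq on GRCm38.p6, are shown with ACGTG or GCGTG on either strand in capitals, the core letters of the hypoxia response element; overlapping matches on both strands appear as CACGTG, which is also the E-box that Myc and the Mlx family bind. RefSeq gives Ldha 2 promoters, of which the one with more matches is printed. The stretches lie at chr7:46845554-46845853 (plus strand) for Ldha, chr6:82774405-82774704 (minus) for Hk2, chrX:106186850-106187149 (plus) for Pgk1 and chr19:41911621-41911920 (plus) for Pgam1.
Ldha: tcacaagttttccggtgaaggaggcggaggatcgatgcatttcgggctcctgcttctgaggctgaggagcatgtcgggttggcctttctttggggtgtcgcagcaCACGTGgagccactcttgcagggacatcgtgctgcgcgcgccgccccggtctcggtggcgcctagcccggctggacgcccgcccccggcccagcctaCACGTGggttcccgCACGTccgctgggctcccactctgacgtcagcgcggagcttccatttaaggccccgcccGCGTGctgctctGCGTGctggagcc
Hk2: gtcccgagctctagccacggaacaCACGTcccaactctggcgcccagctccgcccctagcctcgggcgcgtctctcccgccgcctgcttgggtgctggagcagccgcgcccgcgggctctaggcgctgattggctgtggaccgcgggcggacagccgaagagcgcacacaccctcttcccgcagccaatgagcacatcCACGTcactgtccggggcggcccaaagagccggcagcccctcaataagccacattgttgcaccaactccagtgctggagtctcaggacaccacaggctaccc
Pgk1: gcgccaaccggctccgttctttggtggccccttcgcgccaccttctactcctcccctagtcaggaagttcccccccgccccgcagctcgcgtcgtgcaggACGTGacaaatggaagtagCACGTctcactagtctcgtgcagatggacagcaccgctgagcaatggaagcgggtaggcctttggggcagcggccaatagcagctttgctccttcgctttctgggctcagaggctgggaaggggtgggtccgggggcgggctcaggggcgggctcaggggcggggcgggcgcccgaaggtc
Pgam1: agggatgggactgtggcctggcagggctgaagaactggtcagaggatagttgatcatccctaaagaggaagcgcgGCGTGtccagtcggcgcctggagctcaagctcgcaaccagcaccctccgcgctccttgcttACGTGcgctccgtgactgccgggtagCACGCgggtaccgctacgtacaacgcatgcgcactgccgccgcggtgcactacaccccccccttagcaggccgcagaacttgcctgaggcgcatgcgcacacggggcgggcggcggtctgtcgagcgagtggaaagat
The printed Ldha promoter held 7 matches, counting both strands, and the other Ldha promoter, at chr7:46846832-46847131, held 2. Pgam1 held 3, and Hk2 and Pgk1 held 2 each. Such a match was found in 75.0% of 52 promoters of 35 members, 61.4% of 12854 promoters of listed genes and 43.8% of all 32851 promoters of this length. CACGTG was found in 11.5%, 9.84% and 7.15%. A match is a description of letters, and nothing here bears on binding.

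Counts for other lists of the pathway stand beside 8.64% of all genes that rose and 8.53% that fell against 8w, and 12.7% and 9.41% against 5w. Of 27 further genes of glycolysis and gluconeogenesis, 3 rose and 1 fell against 8w, and 4 rose and 2 fell against 5w. Slc2a8, an intracellular glucose transporter, was at 4.85 to 11.7 CPM in 5w, 7.08 to 11.4 CPM in 8w and 11.7 to 24.2 CPM in aged libraries, with all 6 aged libraries above every younger one, as for 75 of 12791 genes (0.586%). It rose by 0.73 ± 0.19 (limma adjusted p = 0.0142). Pfkfb3, which makes the activator of phosphofructokinase, rose by 0.94 ± 0.26 (adjusted p = 0.0167) and Eno2, the neuronal enolase, by 0.66 ± 0.18 (adjusted p = 0.0172), while Pgm2, a phosphoglucomutase, fell by 0.49 ± 0.15 (adjusted p = 0.031). The call of Eno2 was lost without 8w replicate 2 or aged replicate 1 (highest adjusted p 0.0514). That of Pgm2 was lost without 8w replicate 1, 2, 4 or 5 or aged replicate 1, 2 or 7 (highest 0.0735).

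Around pyruvate dehydrogenase, 1 of 10 further genes rose and 1 fell in each comparison, shares near those of all genes. Pdk2, a kinase that inhibits the complex, was at 14.5 to 27.7 CPM in 8w and 21.9 to 86.7 CPM in aged libraries, and rose by 1.38 ± 0.34 (limma adjusted p = 0.0102), and Pdk3, a related kinase, fell by 0.53 ± 0.17 (adjusted p = 0.039, called in 11 of 20 fits without 1 library). Of 23 further TCA cycle and anaplerotic genes, 1 rose and 4 fell in each comparison. Me2, the mitochondrial malic enzyme that turns malate into pyruvate, was at 68.6 to 152 CPM in 5w, 53.9 to 165 CPM in 8w and 36.0 to 78.9 CPM in aged libraries, with 5 of 6 aged libraries below every younger one. It fell by 1.11 ± 0.21 against 8w (adjusted p = 0.0016). Sdhb, the iron-sulfur subunit of succinate dehydrogenase, fell by 0.69 ± 0.17 (adjusted p = 0.0107) and Idh1, the cytosolic isocitrate dehydrogenase, by 0.60 ± 0.19 (adjusted p = 0.0331, called in 12 of 20 fits without 1 library), while Ogdhl, a relative of Ogdh, rose by 0.99 ± 0.23 (adjusted p = 0.0065).

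Among 8 pentose phosphate genes 1 fell against 8w and 2 against 5w, beside 8.53% and 9.41% of all genes. Of the 8, 7 had a negative fold change against 8w and 8 against 5w, with medians of -0.24 and -0.28. Over all 12791 genes 5802 and 5492 were negative. Among 13 glycogen genes 1 rose against 8w and 2 against 5w, beside 8.64% and 12.7% of all genes. Against 8w the pentose phosphate gene was Rpe, the ribulose phosphate epimerase, which fell by 0.40 ± 0.12 (limma adjusted p = 0.024, called in 15 of 20 fits without 1 library). The glycogen gene was Epm2a, the glycogen phosphatase laforin, which rose by 0.97 ± 0.21 (adjusted p = 0.00401). Of 21 hypoxia response genes 2 rose and 0 fell against 5w, and 4 rose and 0 fell against 8w: Mxi1, a Myc antagonist, by 1.05 ± 0.25, Ndrg1 by 0.90 ± 0.30, Egln2 by 0.58 ± 0.19 and Bnip3l by 0.51 ± 0.16. Their list had a median log2 fold change of -0.05. The calls of Egln2, Ndrg1 and Bnip3l held in 5, 7 and 13 of 20 fits without 1 library, and that of Mxi1 in all 20.

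Of 16 regulators of energy metabolism, 3 rose and 0 fell against 8w, and 3 rose and 1 fell against 5w. Against 8w, 10 of 16 had a negative fold change, beside 5802 of 12791 genes, and their median was -0.06. Txnip, which restrains glucose uptake and is induced by glucose through Mlx-family factors, was at 221 to 637 CPM in 5w, 209.9 to 754 CPM in 8w and 924 to 1640.2 CPM in aged libraries. Sirt3, the mitochondrial deacetylase, was at 6.85 to 12.2, 7.00 to 13.0 and 14.6 to 24.2 CPM. In both genes all 6 aged libraries lay above all 14 younger ones. Txnip rose by 1.59 ± 0.26 (limma adjusted p = 0.000507) and Sirt3 by 0.89 ± 0.15 (adjusted p = 0.000579) against 8w. Ppargc1a, the coactivator of mitochondrial biogenesis, rose by 1.15 ± 0.28 (adjusted p = 0.00946), with 5 of 6 aged libraries above every younger one. Genes on the opposite strand overlap 19.4% of the exon bases of Txnip and 12.7% of those of Sirt3. Such overlap was also 26.4% for Ankrd37, 22.3% for Bnip3, 17.9% for Rpe and 8.43% for Ndrg1. Among the members it was 16.1% for Pdha1 and 11.5% for Gpi1. The library kit does not mark strand, so reads of these stretches cannot be told apart.

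Some markers of proliferation and cell types also differed with age. Of all genes 8.64% rose and 8.53% fell against 8w, and 12.7% rose and 9.41% fell against 5w. Of 24 cell cycle genes 23 fell against 8w, with a median log2 fold change of -2.73, and their sum was 1110.4 to 4477 CPM in 5w, 996 to 5042 CPM in 8w and 344 to 1282 CPM in aged libraries. Mki67, the proliferation marker, was at 63.5 to 404 CPM in 5w, 62.6 to 325 CPM in 8w and 3.89 to 79.8 CPM in aged libraries. Of 4 haemoglobin genes 4 rose against 8w and 0 were called against 5w. Their median log2 fold change against 8w was 3.19 in the earlier and 0.97 in the later set. Of 7 plasma cell markers 4 rose against 8w and 5 against 5w. The plasma cell markers summed to 448 to 875, 585 to 953 and 1008 to 7561 CPM in 5w, 8w and aged libraries. Of 12 smooth muscle markers 0 were called against 8w and 2 rose against 5w. Their median log2 fold change against 8w was 1.88 in the earlier and -0.37 in the later set. Their sum in the earlier set was 4240 and 19778 CPM in aged and 1934 and 2952 CPM in 8w libraries. Of 12 epithelial markers 2 rose in each comparison. Against 8w, 8 had a negative fold change, beside 5802 of 12791 genes, and the median of the 12 was -0.35. Against 8w, 1 of 12 stromal markers fell, and of 10 endothelial and 10 macrophage markers 1 each rose. Of 4 adipocyte markers 3 rose, and of 4 skeletal muscle markers 1 fell. Against 5w, 2 stromal markers fell, 2 each of the endothelial, macrophage and adipocyte markers rose, and 0 skeletal muscle markers were called. The 1 listed T and B cell marker, Cd79b, was called in neither comparison. In aged replicate 7 the smooth muscle sum was 3349 CPM against a median of 18799 CPM in the aged libraries of its set, the library in which 22 members were lowest. Whether these shifts have a part in the members' differences was not tested.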

How the data were processed

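Whole-uterus RNA was sequenced after NEBNext Ultra library preparation, per the labels' protocols. Read trimming, alignment and counting tools listed per the submitters' processing notes are fastp, STAR, featureCounts and edgeR, with the build GRCm38; versions and the strand setting are not given in the sources used here. The authors deposited CPM values per gene, each column summing to 1000000. All values were whole multiples of 1 read within 1e-06 reads, and every listed gene has at least 10 reads in each library.

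From these, limma 3.58.1 in R 4.3.3 was fitted to log2(CPM + 1) of 12791 genes in 20 libraries, with age group and set as terms, a mean-variance trend and Benjamini-Hochberg adjustment over all genes, called at 0.05. Fold changes are on the log2(CPM + 1) scale, which understates changes of low genes. Isozyme ratios were tested by exact permutation within sets. Exon lengths, overlaps and 60-base stretches came from GENCODE release 21 of mouse, and promoters from RefSeq on GRCm38.p6. The limma fit was checked on simulated counts with the same relative spread for every gene and no shifts of whole libraries. The permutation test was checked on a fully separated case. These settings are simpler than the data, so they do not give the error rates here. Pearson library correlations within group and set ran from 0.849 to 0.98, and no pair was a near copy.

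All members are named, and from each pathway list at most the 4 largest called changes against 8w. Members and lists were chosen with earlier results of these data known. The alternatives were pseudocounts of 0.1 and 5, a mean of at least 5 CPM, other scalings, no set term, each set alone, a replicate block, columns by file, array weights and each library left out. Added after seeing the data were limma voom on whole reads and leaving out 8w replicate 4 alone in the later set or with aged replicate 7.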

Additional observations from a re-analysis of the deposited data

Results flagged for a closer look

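Each member was examined for a library far from the others of its group, among all libraries and within the later set, by the gap to its nearest neighbour as a share of the group's range. Of 216 such comparisons 11 stood out (5.09%), beside 5.1% over all genes, and chance gives about 1 in 20. In 8w replicate 4 this held for Aldoa, with a gap of 0.603 of the range among all 8w libraries and 0.83 among those of the later set. Within the later set it also held in that library for Gapdh (gap 0.714, 3355 CPM against 1574 to 1955), Eno1 (0.897, 1295 against 671 to 718), Pkm (0.717, 966 against 472 to 578) and Slc16a3 (0.747). In 8w replicate 6, Ldhb was high (0.743, 465 CPM against 128 to 178) and Suclg2 low (0.756, 68.2 CPM against 95.4 to 106). Pdk1 was low in 5w replicate 3 (0.777, 16.3 CPM against 26.8 to 30.8). Hk1 was high in aged replicate 7 (0.858, 133 CPM against 34.0 to 41.3). Dlst was low in aged replicate 5 (0.921, 103 CPM against 109), where the other 3 libraries lay close together.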

How the results depend on the processing

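No result reversed its direction after a call in any alternative run. Genes called higher and lower against 8w, 1105 and 1091 as reported, were 500 and 469 without a set term, 51 and 132 in the later set alone, 70 and 202 there without 8w replicate 4, 1922 and 1691 in the earlier set alone, 309 and 256 with columns attached by file and 2823 and 2695 with array weights. Against 5w, 1622 and 1203 became 815 and 565 without a set term, 240 and 283 in the later set alone, 282 and 359 there without 8w replicate 4, and 2956 and 2180 with array weights, and with columns by file 727 were lower. Members lower against 8w, 9 as reported, were 3 without a set term, 1 with columns by file and 0 in the later set alone, with or without 8w replicate 4. Members higher there, 0 as reported, were 3 in the earlier set alone and 2 with array weights. Members lower against 5w, 14 as reported, were 4 without a set term, 7 with columns by file, 0 in the later set alone and 3 there without 8w replicate 4. Members higher were 1 with quantile normalization, 3 in the earlier set alone, 2 with columns by file and 2 with array weights. Ratios called, 0 as reported, were 1 against 8w with a pseudocount of 0.1 and 1 against 5w with columns by file. The later set alone has 14 libraries and the earlier 6; the cause of the other changes was not tested.

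With 1 library left out, genes higher and lower ran from 629 to 1495 and 647 to 1382 against 8w and from 1106 to 2020 and 839 to 1329 against 5w. Members lower ran from 7 to 11 and 8 to 14, members higher from 0 to 1 and 0 to 2, genes called for the set from 6804 to 7813 and members from 21 to 26; 8w against 5w and the ratios stayed at 0. A replicate block in place of the set gave 9 members lower against 8w, 7 of them shared, beside 6.53% of all genes. Against 5w it called 14, 12 of them shared, with 1 higher (Ldhb), beside 8.4% of all genes lower and 10.5% higher. Same-numbered libraries had deviations correlated from -0.51 to 0.28 over 19 pairs, 10 of them above 0.1. Closest to their own number were 5 of 20 libraries. With 2 libraries per group in the earlier set, the deviations of a group mirror each other. Whether same-numbered libraries were paired therefore cannot be decided from these values. The planned edgeR, DESeq2 and TMM alternatives were not run, because the deposited columns are CPM and a check of their unit did not accept them as recovered counts, although all values were whole multiples of 1 read within the tolerance used. Limma voom on those reads called 7 members against 8w, without Pgk1 and Pdhb, and all 14 against 5w. Of all genes 6.95% and 8.56% were lower there. Median centring lost Pdhb and Fh1 against 8w and Tpi1 and Eno1 against 5w. It added Slc16a1 and Cs against 8w and Pdha1 against 5w. Quantile normalization lost Pdhb and Fh1 against 8w and Dld and Fh1 against 5w. It added Gapdh against 8w and Idh2 against 5w. Array weights lost Pdhb against 8w and Eno1, Pdhb, Fh1 and Mdh2 against 5w. They added Gpi1, Dld, Cs and Idh3b against 8w and Ldhb, Pdha1 and Idh2 against 5w. Low depth cannot be judged from the members, since every listed gene has at least 10 reads in each library.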

Other observations

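The summed level of the 13 TCA cycle members was 2281 to 2525 CPM in 5w, 2172 to 2771 CPM in 8w and 1710.1 to 2258 CPM in aged libraries, so aged libraries overlapped 8w at the edge and lay below all 5w libraries. The 4 lactate genes summed to 947 to 1689 CPM in 5w, 818 to 1746 CPM in 8w and 631 to 890.0 CPM in aged libraries. The 15 glycolysis members summed to 4308 to 8470 CPM, 2452 to 10173 CPM and 1962 to 5499 CPM, with overlap among all 3 groups when both sets are pooled. In the earlier set their sum was 4308 to 4530.5 CPM in 5w, 2452 to 4007 CPM in 8w and 1962 to 3225 CPM in aged libraries, so aged lay below 5w. In the later set it was 4331 to 8470, 4490 to 10173 and 3303 to 5499 CPM, with overlap among all 3 groups.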
